A study of Schizosaccharomyces pombe with 6 samples.

Results

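To examine what follows when *pab1*, the gene of the B55 regulatory subunit of protein phosphatase 2A, is repressed with thiamine in cells that lack *igo1*, RNAseq libraries of an *igo1*-deleted strain with repressed *pab1* were compared with libraries of the *igo1* deletion alone. All genes with a mean normalised count of at least 10 over these 4 libraries were taken, which gave 6046 of the 7001 genes in the deposited table. The *pab1*-repressed strain was h- nmt41-GST-pab1-KanMx6 igo1::natMx6, in which *pab1* is tagged with GST and driven by the thiamine-repressible nmt41 promoter, with 2 libraries. It was set against h- igo1::kanMX6, also with 2 libraries, so *igo1* is deleted by label on both sides but with different marker cassettes. Wild type (WT, h- 972) gave 2 further libraries, held in another table, and is used only for levels. All 6 libraries came from fission yeast (*Schizosaccharomyces pombe*) of the h- mating type, taken after 4 hours at 25 °C in minimal medium without nitrogen and labelled as biological replicates.

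Endosulfine, the product of *igo1*, inhibits PP2A/B55 once the Greatwall kinases have phosphorylated it, which happens when nitrogen runs out. A cell without Endosulfine therefore keeps this phosphatase active, and lowering *pab1* is the genetic means of taking it down again. The nmt promoters derive from *nmt1*, a gene of thiamine synthesis that is transcribed in the absence of thiamine and shut off in its presence. Repression of *pab1* and exposure to thiamine therefore change together in this design and cannot be told apart. The growth and washing notes name thiamine for all strains, whereas the measured levels of the thiamine-repressed genes differed by strain, as given below.

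The libraries held 15637817 to 18809513 reads on genes for the 4 that enter the comparison. Reads of *igo1* were present under both deletion labels, so groups are named by their labels. The 2 libraries labelled *igo1 pab1* lay far apart: their median absolute difference per gene was 0.47 on the log2 scale, and 1268 genes (21.0%) differed more than 2-fold between them. Between the 2 libraries labelled *igo1* the median was 0.15, with 137 such genes (2.27%). The biological coefficient of variation (edgeR's estimate of relative spread between replicates) was 0.43 in the *igo1 pab1* pair, 0.11 in the *igo1* pair and 0.046 in the WT pair.

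The test was limma on log2(normalised count + 1), with p-values adjusted by Benjamini-Hochberg over all 6046 genes, and a gene was called at an adjusted p under 0.05. By this rule 546 genes (9.03%) were called. In the libraries labelled *igo1 pab1* 176 (2.91%) rose and 370 (6.12%) fell relative to those labelled *igo1*. Among the calls, 85 higher and 165 lower genes differed at least 4-fold, and 28 and 64 at least 10-fold. The libraries of the 2 groups did not overlap for many more genes, with both *igo1 pab1* values above both *igo1* values for 1988 genes (32.9%) and below them for 2074 (34.3%). DESeq2 on the recovered reads called 565 higher (9.35%) and 732 lower (12.1%). The counts turned on single libraries. Without *igo1* replicate 1 the calls fell to 34 higher and 89 lower, and without *igo1* replicate 2 to 50 and 101. Leaving out *igo1 pab1* replicate 1 raised them to 1851 and 2015, and leaving out *igo1 pab1* replicate 2 to 1514 and 1821, since the lone library is then taken to vary as the *igo1* pair does. These fits tested 6028 and 5982 genes. Each list count given below without an *igo1 pab1* replicate stands beside these high counts of all genes. It rests on the same assumption and does not by itself show a response of the list. In the main fit, calls that were higher made up 32.2% of the total, against 46.3% (247 higher, 287 lower) under upper-quartile scaling. That scaling put the middle gene at 0.19 on the log2 scale, against 0.00 with the deposited scaling. No called gene changed direction under any of the 15 alternatives, which refit the same *igo1* and *igo1 pab1* libraries and so are no independent check of direction. Of the 162 called genes that the naming rule picks out, 64 were called under every alternative, 48 lost their call only when an *igo1* replicate was left out, and 50 lost it under at least one other setting.

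**Figure D1:**
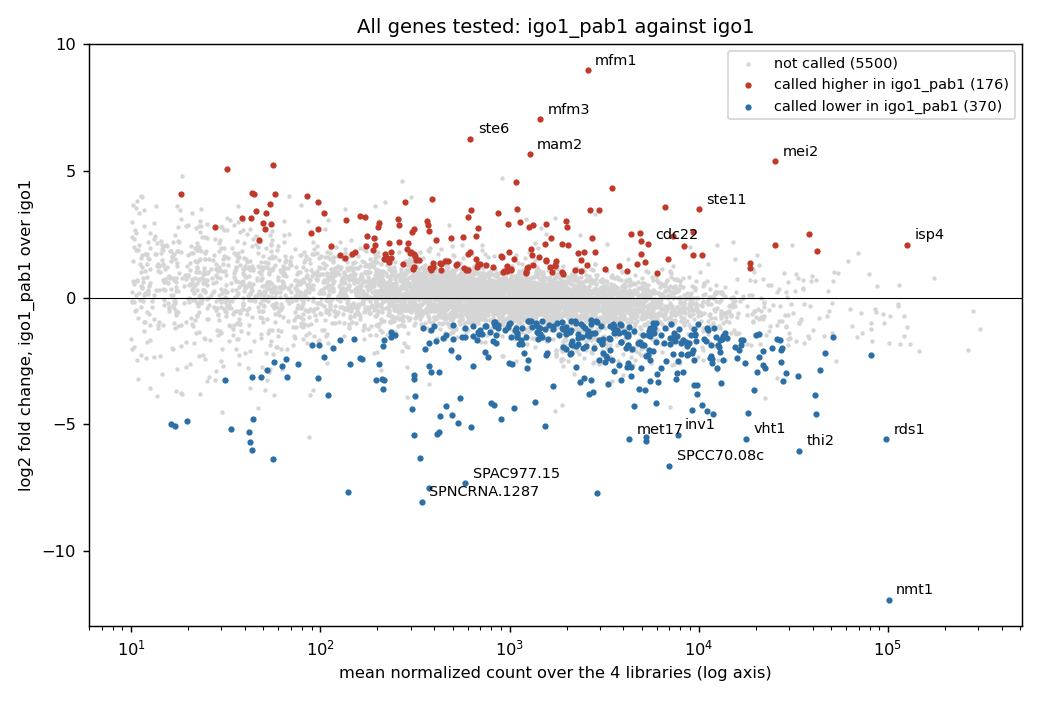
Log2 fold change of *igo1_pab1* over *igo1* (vertical axis) against the mean normalised count over the 4 libraries (horizontal log axis) for the 6046 genes tested, with the 176 called higher in red and the 370 called lower in blue. *mfm1* stands at the top with 8.97 and *nmt1* at the bottom with -11.93.

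The targeted genes were read first. *pab1* had 1848 and 1018 normalised counts in the libraries labelled *igo1 pab1*, against 2405 and 2164 in those labelled *igo1*. Both values lay below the *igo1* pair, but the log2 fold change of -0.73 (standard error 0.33) was not called (limma, adjusted p = 0.199). In RPM (a gene's reads scaled to a fixed total of reads on genes in its library, with no size factor) *pab1* was at 122 and 68.9 under the *igo1 pab1* label, 123 and 98.2 under the *igo1* label and 193 and 188 in WT. On that scale *igo1 pab1* replicate 1 lay between the *igo1* libraries and replicate 2 below both. *igo1* itself had 1856 and 4756 normalised counts in the libraries labelled *igo1 pab1* and 1866 and 1758 in those labelled *igo1*, a log2 fold change of 0.71 (limma, adjusted p = 0.343). Deletion should leave no reads on the deleted part, and which part of the gene each cassette replaced is not stated, so every direction below rests on the labels. Among 14 genes of the pathway, 1 rose: *par2*, a B56-type regulatory subunit of PP2A, had 2256 and 2802 normalised counts against 1278 and 1206 (log2 fold change 1.02, limma, adjusted p = 0.0489), a call lost with either *igo1* replicate left out. Of all genes 2.91% were called higher. The median log2 fold change of the pathway was -0.15 without *igo1 pab1* replicate 1 and -0.01 without replicate 2. The Greatwall kinase genes *ppk18* (-0.64) and *cek1* (-0.31), the catalytic subunit genes *ppa1* (0.25) and *ppa2* (-0.09) and the scaffold gene *paa1* (-0.09) had log2 fold changes that were not called.

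The thiamine-repressed genes held the gene with the largest fold change of all those tested. *nmt1*, which makes the pyrimidine part of thiamine, had 53.1 and 46.3 normalised counts in the libraries labelled *igo1 pab1*, against 161517 and 241254 in those labelled *igo1*, a 4052-fold lower level (log2 fold change -11.93, standard error 0.26, limma, adjusted p = 0.00111). In RPM it stood at 3.51 and 3.13, against 8292 and 10952, and at 11217 and 12294 in WT. Only the *igo1 pab1* libraries thus held it low. The stretch just before its start is shown because the nmt41 promoter is a version of it with an altered TATA box, here in capitals (RefSeq sequence of ASM294v3, chromosome III, plus strand, the 74 bases before the gene start).
*nmt1*: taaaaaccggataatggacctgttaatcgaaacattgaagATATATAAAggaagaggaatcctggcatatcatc
Of the 10 thiamine-repressed genes, 8 fell and 2 were not called, beside 6.12% of all genes called lower. Their median log2 fold change was -3.76, against 0.00 over all genes. *thi2*, which makes the thiazole part, had 781 and 1306 normalised counts against 70763 and 63044 (-6.05). *bsu1*, a transporter of pyridoxine, was at -4.61 on the log2 scale, the acid phosphatase gene *pho4* at -4.47, and *thi201*, for phosphomethylpyrimidine kinase, at -4.28. Smaller falls were seen for *thi4*, which joins the ring parts (-3.25), for the thiamine transporter gene *thi9* (-3.02) and for the transcription factor gene *thi5* (-1.26). The 2 that were not called were *tnr3*, for thiamine pyrophosphokinase, with 1489 and 1399 normalised counts against 1898 and 1857, and the transcription factor gene *thi1*, with 1254 and 1017 against 1481 and 1445. Without *igo1* replicate 1, and likewise without replicate 2, 7 of the 10 were called.

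**Figure D2:**
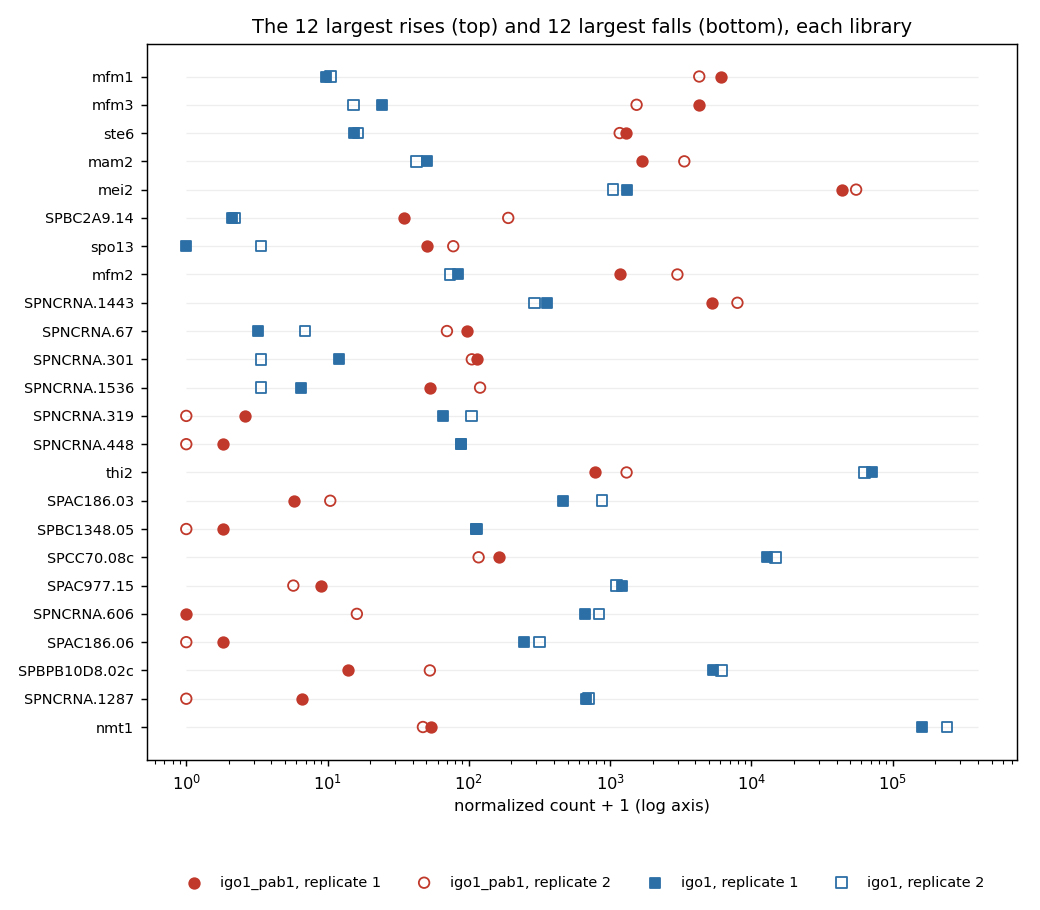
Normalised count + 1 on a log axis in each of the 4 libraries (circles for *igo1_pab1*, squares for *igo1*, filled for replicate 1 and open for replicate 2) for the 12 called genes with the largest rises and the 12 with the largest falls. In each of the 24 genes the groups do not overlap, as the naming rule requires, and a value of 1 stands for a library with no read.

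The 5 largest rises were all in genes of mating and the start of meiosis. Nitrogen starvation drives fission yeast towards mating through Ste11, a transcription factor that turns on pheromone, receptor and meiosis genes, and h- cells make the M-factor pheromone. *mfm1*, one of 3 genes for the M-factor precursor, had 6103 and 4269 normalised counts in the libraries labelled *igo1 pab1*, against 8.82 and 9.52 in those labelled *igo1*, a 566-fold higher level (log2 fold change 8.97, standard error 0.29, limma, adjusted p = 0.00307). *mfm3* had 4232 and 1537 against 23.1 and 14.3 (7.05, standard error 0.57), and *mfm2* had 1164 and 2989.8 against 82.7 and 72.6 (4.57, standard error 0.49). The 3 genes encode the same pheromone, and how reads shared between them were counted is not stated. For none of the 3 did the groups overlap. *mam2*, the receptor for the partner's P-factor, had 1681 and 3346 normalised counts against 49.6 and 41.6 (5.67, limma, adjusted p = 0.00771). *mam1*, which exports M-factor, had 6724 and 9598 against 1809.6 and 1581 (2.25), and *mam4*, which methylates it, 779 and 1613 against 181 and 155 (2.74).

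In all, 6 of the 8 M-cell genes tested rose, beside 2.91% of all genes, with a median log2 fold change of 3.66. The other two were *mam3*, an agglutinin, with 3092 and 5327 normalised counts against 2895 and 3104, and *sxa2*, a protease that degrades P-factor, with 224 and 465 against 210.5 and 206. Summed over the list, M-cell genes took 1586 and 1974 RPM under the *igo1 pab1* label, 270.2 and 235 under the *igo1* label and 2417 and 2269 in WT. With either *igo1* replicate left out 5 were called. The master gene of the h- type, *mat1-Mc*, was too low for the test, with 5.63 and 12.3 normalised counts against 2.20 and 0. Among the 5 genes of P cells 1 rose, beside the same 2.91% of all genes. It was *map1*, a MADS-box partner of the P-specific program, with 285 and 301 normalised counts against 36.4 and 25.0 (3.24, limma, adjusted p = 0.0162). *map2*, the P-factor gene, had 85.3 and 56.7 against 49.6 and 57.1 and was not called, as were *map3* (0.37), *map4* (0.20) and *sxa1*, with 10624 and 5765 against 14648 and 16709.6. In bulk RNA, fewer cells of a state and less RNA per cell cannot be told apart.

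Several regulators and signalling genes of mating rose with the pheromone genes. *ste11* had 11489 and 25681 normalised counts in the libraries labelled *igo1 pab1*, against 1426 and 1648 in those labelled *igo1* (log2 fold change 3.49, standard error 0.42, limma, adjusted p = 0.02). *mei2*, an RNA-binding protein that starts meiosis, had 44029 and 55037 against 1320.3 and 1043, a 41.9-fold higher level (5.39, limma, adjusted p = 0.00431). In RPM *mei2* stood at 2909 and 3726 under the *igo1 pab1* label, 67.8 and 47.4 under the *igo1* label and 1929 and 1961 in WT. *ste11* stood at 759 and 1738 RPM under the *igo1 pab1* label, 73.2 and 74.8 under the *igo1* label and 349.7 and 431 in WT. Both *igo1 pab1* libraries were thus above both WT libraries on that scale for *ste11* and *mei2*, a difference that was not tested. *ste6*, an exchange factor that activates Ras1 in cells of both mating types, had 1289.08 and 1167 normalised counts against 14.3 and 15.5 (6.27, standard error 0.27). *rgs1*, which damps the pheromone G protein, had 1751 and 2274 normalised counts against 179 and 174 (3.49). *spk1*, the MAP kinase of the pathway, had 1526 and 2531 against 272 and 228 (2.97), and its upstream factor *ste4* 502 and 809.6 against 97.0 and 63.0 (3.01). *ste7* (1.69) and the G protein alpha subunit gene *gpa1* (1.45) rose less. Of 18 genes of mating and pheromone signalling 8 rose and 10 were not called, with a median of 0.65, and 6 were called higher with either *igo1* replicate left out. That median was 0.72 without *igo1 pab1* replicate 1 and 0.73 without *igo1 pab1* replicate 2. Of all genes 2.91% were called higher in the main fit. The list summed to 6272 and 8759 RPM, against 1491 and 1412, and to 4464 and 4581 in WT.

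Promoters of these genes were searched for TTCTTTGT, the core of the TR box that Ste11 binds, on both strands from 250 bases before to 50 after each gene start (RefSeq, ASM294v3). The letters were found in 184 of the 4985 promoters of protein-coding genes tested (3.69%), in 16 of the 135 whose genes rose (11.9%) and in 5 of the 313 whose genes fell (1.597%). They were in 3 of 8 M-cell promoters (37.5%) and 8 of 18 mating promoters (44.4%). Stretches are shown for the called genes of either list whose window holds the core, 5′ to 3′ on the strand of the gene, with the core or its reverse complement ACAAAGAA in capitals.
*mfm1* (chromosome I, plus strand, core 78 bases before the start): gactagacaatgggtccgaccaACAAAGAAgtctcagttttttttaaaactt
*mfm3* (II, plus, 163 before): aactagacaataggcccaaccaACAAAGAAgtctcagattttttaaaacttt
*ste6* (III, plus, 179 before): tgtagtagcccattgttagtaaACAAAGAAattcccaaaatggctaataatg
*mei2* (I, minus, first core 160 before): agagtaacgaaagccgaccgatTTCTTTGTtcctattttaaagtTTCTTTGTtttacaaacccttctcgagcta
*rgs1* (I, plus, first core 187 before): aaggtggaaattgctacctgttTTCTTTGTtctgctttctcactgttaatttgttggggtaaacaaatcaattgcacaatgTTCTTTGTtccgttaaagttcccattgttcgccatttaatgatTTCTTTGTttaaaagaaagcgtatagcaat
*ste11* (II, plus, 127 before): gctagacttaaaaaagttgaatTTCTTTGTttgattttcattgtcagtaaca
*ste4* (I, minus, 54 before): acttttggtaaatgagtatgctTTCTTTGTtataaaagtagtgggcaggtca
*spk1* (I, minus, last core 50 before): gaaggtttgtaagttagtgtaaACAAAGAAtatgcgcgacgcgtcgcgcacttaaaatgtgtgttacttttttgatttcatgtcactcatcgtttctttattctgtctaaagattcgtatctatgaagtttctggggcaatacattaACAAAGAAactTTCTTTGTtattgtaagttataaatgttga
*mam4* (I, minus, first core 179 before): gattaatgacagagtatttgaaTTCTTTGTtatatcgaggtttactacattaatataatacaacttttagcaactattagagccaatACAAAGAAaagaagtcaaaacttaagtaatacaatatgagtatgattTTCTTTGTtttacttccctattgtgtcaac
*ste7* (I, minus, 91 before): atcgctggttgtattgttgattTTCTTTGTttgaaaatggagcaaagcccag
The stretches around the core in *mfm1* and *mfm3* are alike well beyond the capitals, and *mam4*, *rgs1* and *spk1* hold 3 matches each. The letters are not in the windows of the called genes *mam2*, *mfm2*, *mam1* and *gpa1*. A match is a description of the letters and not a measured binding site.

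Genes of late meiosis and spore formation held calls in both directions. Of 16 tested, 2 rose, 1 fell and 13 were not called, beside 2.91% and 6.12% of all genes, with a median of 0.69 (log2), and the 3 calls were lost with either *igo1* replicate left out. The median was 0.61 without *igo1 pab1* replicate 1 and 0.89 without replicate 2. The meiotic septin gene *spn6* had 932 and 384 normalised counts against 90.4 and 73.8 (2.86), and the meiotic cyclin gene *crs1* 342 and 318 against 115 and 114 (1.52). *isp3*, a spore coat protein, fell, with 46.7 and 46.3 against 164 and 209 (-1.97). *mei4*, the transcription factor of middle meiosis, had 843 and 607 against 527 and 467, and *mei3*, which releases Mei2 in diploid cells, 12.9 and 13.2 against 13.2 and 29.7, neither of them called. *spo13*, outside that list, had 143 reads under the *igo1 pab1* label and 2 under the *igo1* label, a ratio of 54.3 with a counting interval from 14.8 to 453. SPBC2A9.14, of unknown role, had 242 reads and 2 reads, a ratio of 91.9 (interval 25.2 to 763). The 242 were 42 reads in replicate 1 and 200 in replicate 2, a spread that the interval does not cover. The calls of *spo13* and SPBC2A9.14 were lost with either *igo1* replicate left out. In all, *spo13* lost its call under 3 alternatives and SPBC2A9.14 under 6, edgeR among the latter. Both passed the filter through the *igo1 pab1* libraries alone, so their rises are not independent evidence of a direction.

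Genes of the G1/S transition formed another group of rises. The MBF complex (Cdc10 with Res1 or Res2) transcribes genes for DNA replication at the start of S phase, while cells starved of nitrogen arrest in G1. *cdt2*, an adaptor through which a ubiquitin ligase destroys the replication inhibitor Spd1 and Cdt1, had 793 and 1383 normalised counts in the libraries labelled *igo1 pab1*, against 110.2 and 117 in those labelled *igo1* (log2 fold change 3.20, standard error 0.33, limma, adjusted p = 0.0156). *cdt1* had 415 and 508 against 59.5 and 46.4 (3.10, limma, adjusted p = 0.0133) and *cdc18* 1070.2 and 2448 against 197 and 228 (2.92). These last 2 genes load the replicative helicase at origins. *tos4*, a transcription factor, had 1919.9 and 5242 against 403 and 369.9 (3.03), and the G1/S cyclin gene *cig2* 1213 and 3268 against 279 and 290.2 (2.80). *cdc22*, the large subunit of ribonucleotide reductase, had 8341 and 9152 against 1955 and 2075 (2.12, standard error 0.18, limma, adjusted p = 0.00977), and the checkpoint mediator gene *mrc1* 1463 and 2568 against 655 and 549.6 (1.69). In the libraries labelled *igo1 pab1*, replicate 2 was the higher one for each of these 7 genes.

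Of the 21 MBF subunits and targets, 7 rose and 14 were not called, beside 2.91% of all genes called higher. Their median log2 fold change was 1.17. The groups did not overlap for 16 of them on the higher side, against 32.9% of all genes. DESeq2 called 15 of the 21 higher, and limma 4 without *igo1* replicate 1 and 6 without *igo1* replicate 2. The median of the list was 1.56 without *igo1 pab1* replicate 1 and 0.92 without replicate 2. Not called were *dut1* (2.04), *yox1* (2.01), *mik1* (1.97) and *mcl1* (-0.65), and among the subunits of MBF and its regulators *cdc10* (0.95), *res1* (-0.51), *res2* (-0.14) and *nrm1* (0.08). The list summed to 2275 and 3275 RPM under the *igo1 pab1* label, 937 and 823 under the *igo1* label and 3062 and 2993 in WT.

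The MluI cell cycle box ACGCGT, which MBF binds, was searched in the same windows on both strands. It was in 163 of the 4985 promoters (3.27%), in 9 of the 135 of genes that rose (6.67%), in 4 of the 313 of genes that fell (1.28%) and in 8 of the 21 on the list (38.1%). It was found before 5 of the 7 called genes, shown here with the box in capitals.
*cdt2* (chromosome I, minus strand, first box 122 bases before the start): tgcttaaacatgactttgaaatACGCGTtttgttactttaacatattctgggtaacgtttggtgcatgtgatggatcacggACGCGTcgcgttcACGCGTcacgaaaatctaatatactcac
*cdt1* (II, plus, 77 before): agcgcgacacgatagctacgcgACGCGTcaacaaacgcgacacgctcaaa
*tos4* (I, plus, 79 before): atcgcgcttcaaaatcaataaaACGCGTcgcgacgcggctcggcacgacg
*cdc22* (I, plus, first box 62 before): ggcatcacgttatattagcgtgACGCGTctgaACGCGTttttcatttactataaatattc
*mrc1* (I, minus, first box 68 before): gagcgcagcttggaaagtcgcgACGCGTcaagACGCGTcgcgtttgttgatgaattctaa
*cdt2* holds 3 boxes and *cdc22* and *mrc1* a pair each, and these letters are not in the windows of *cdc18* and *cig2*.

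Cell cycle genes outside MBF changed less, and their counts stand beside 2.91% of all genes called higher. Of 18 genes for the CDK, cyclins and inhibitors 4 rose, *cig2* among them, and 14 were not called, with a median of 0.41. *rum1*, the CDK inhibitor that holds cells in G1, had 1885 and 2724 normalised counts against 963 and 971 (1.23). *srw1*, which directs cyclin destruction in G1, had 1287 and 1237 against 579.7 and 642 (1.05), and *cdr1*, a kinase that inhibits Wee1, 5328 and 5897 against 2658 and 2801 (1.04). Genes for G1 arrest and for S phase thus both stood among the rises. None of the 4 was called without *igo1* replicate 1, and 1 without *igo1* replicate 2, while 11 rose and 3 fell without *igo1 pab1* replicate 1 and 9 and 3 without replicate 2. *cdc2* (-0.23), *cdc13* (0.38), *wee1* (0.49) and *cdc25* (0.66) were not called. Of 27 genes of the replication machinery 1 rose, *pol1* for the catalytic subunit of DNA polymerase alpha, with 3341 and 3737 normalised counts against 1054 and 1028 (1.76, limma, adjusted p = 0.0142), also lost with either *igo1* replicate left out. The median log2 fold change of the replication list was -0.09 without *igo1 pab1* replicate 1 and 0.04 without replicate 2.

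Amino acid synthesis was the list with the most genes called. Of 59 genes tested, 39 fell, 1 rose and 19 were not called, beside 6.12% of all genes called lower and 2.91% called higher. Their median log2 fold change was -1.77. The *igo1 pab1* libraries were below the *igo1* libraries for 54 of the 59, against 34.3% of all genes. The number called lower was 48 by DESeq2, 52 with either *igo1 pab1* replicate left out, 19 without *igo1* replicate 1 and 18 without *igo1* replicate 2. *met17*, homocysteine synthase, had 188 and 158 normalised counts in the libraries labelled *igo1 pab1*, against 7244 and 9538 in those labelled *igo1*, a 48.5-fold lower level (-5.58, standard error 0.23, limma, adjusted p = 0.00431). *snz1*, which makes pyridoxal phosphate, the cofactor of transaminases, had 1347.8 and 1576 against 27404 and 42161 (-4.54), and its glutaminase partner *sno1* 443 and 709 against 5716 and 6377 (-3.43). Lysine synthesis was represented by *lys12*, homoisocitrate dehydrogenase, with 845 and 759 normalised counts against 15626 and 19441 (-4.44), *lys3*, saccharopine dehydrogenase, with 1651 and 997 against 16587 and 19709.6 (-3.82), and *lys4*, homocitrate synthase, with 3203 and 1585 against 22849 and 24488 (-3.39). In the leucine branch *leu3*, 2-isopropylmalate synthase, had 7150.3 and 3844 against 70182 and 83065 (-3.86), *leu2* 6148 and 8013 against 53949.6 and 66464 (-3.09) and *leu1* 1759.8 and 1437 against 9479.99 and 12515 (-2.78). *ser3*, the first enzyme of serine synthesis, was at -3.46, and falls of smaller size were seen for *trp1* (-1.88), *arg3* (-1.71) and *his3* (-1.46). The one that rose, *lys7*, attaches a cofactor to aminoadipate reductase and had 347 and 439 normalised counts against 159 and 149.9 (1.33), a call lost under 5 alternatives, among them each *igo1* replicate left out. Of those not called, *ilv5* had the most negative value (-3.17, limma, adjusted p = 0.055), with its *igo1 pab1* libraries at 9774 and 2579.8, and *met8*, siroheme synthase, the one nearest to 0 (-0.04). The list summed to 17058 and 12504 RPM under the *igo1 pab1* label, 47317 and 49573 under the *igo1* label and 15778 and 16273 in WT.

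Uptake and assimilation of nitrogen did not move as one, and the assimilation genes that fell stand beside 6.12% of all genes called lower. *amt3*, an ammonium transporter, had 49.1 and 132 normalised counts against 1501 and 1633 (-4.26, limma, adjusted p = 0.0195). *gdh1*, the NADP-dependent glutamate dehydrogenase, had 7487 and 3345 against 43786 and 56417 (-3.31), and *put1*, proline dehydrogenase, 10937 and 11101 against 42074 and 45740.5 (-1.99). These 3 were the ones that fell of 14, with a median of -0.74, and 2 were called with either *igo1* replicate left out, against 7 with either *igo1 pab1* replicate left out. The main ammonium transporter gene *amt1* (-0.63), *amt2* (-1.24), glutamine synthetase *gln1* (-0.86) and glutamate synthase *glt1* (-1.81) were not called. Among 18 permeases 2 rose and 3 fell, beside 2.91% and 6.12% of all genes, with a median of -0.04. The oligopeptide transporter gene *isp4* was already abundant and had 182829 and 227319 normalised counts against 43282 and 52458 (2.097), and the amino acid permease gene *per1* 33214 and 49064 against 8591 and 10642 (2.08). On the other side *aat1* had 631 and 1828 against 6866 and 7407 (-2.73), the arginine and lysine transporter gene *cat1* 180.2 and 338 against 1228 and 1322 (-2.36) and the vacuolar transporter gene *avt5* 1085 and 1662 against 4417 and 5176 (-1.83). Of these 5, all lost their call without *igo1* replicate 1 and 4 of them without *igo1* replicate 2, while 6 rose and 6 fell without *igo1 pab1* replicate 1 and 5 and 7 without replicate 2. The peptide transporter gene *ptr2* had 10536 and 41214 against 4099.7 and 5059 and was not called.

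Stress genes fell in part. Of 40 genes of the Sty1-Atf1 core response, the MAP kinase program that many stresses turn on, 12 fell and 28 were not called. Of all genes 6.12% were called lower. The list had a median of -0.64. *rds1* had 4535 and 3426 normalised counts in the libraries labelled *igo1 pab1*, against 158339 and 225639 in those labelled *igo1*, a 48.2-fold lower level (-5.58, limma, adjusted p = 0.0066). *cta3*, a P-type cation ATPase, had 1915 and 5676 against 72211 and 87134 (-4.59). The quinone dehydrogenase gene *obr1* (-3.20), the heat shock protein gene *hsp9* (-2.85), the peroxiredoxin gene *tpx1* (-2.35), *gpd1* for glycerol synthesis (-2.25) and the catalase gene *ctt1* (-1.68) fell too. *atf1* itself had 13123 and 12244 normalised counts against 14165 and 18401 and was not called, nor were the phosphatase gene *pyp2* (-1.20) and the kinase gene *srk1* (-0.95). With either *igo1* replicate left out 3 were called lower, against 23 without *igo1 pab1* replicate 1 and 19 without replicate 2. TGACGT, the core of the element that Atf1 and Pcr1 bind, was in the promoters of 9 of the 40 (22.5%), in 27 of the 313 coding genes that fell (8.63%) and in 291 of all 4985 (5.84%). Of these 9, *rds1*, *gpd1* and *ctt1* fell, while *apt1*, *atf1*, *gst3*, *ish1*, *ntp1* and *srk1* were not called. The list took 13213 and 13169 RPM, against 33155 and 36878, and 15212 and 14777 in WT. Of 27 heat shock genes and chaperones 2 fell, beside 6.12% of all genes: the mitochondrial cochaperone gene *mge1* (-1.54) and calnexin *cnx1* (-1.25). Both calls were lost with either *igo1* replicate left out. The list had a median of 0.17, which was 0.10 without *igo1 pab1* replicate 1 and 0.26 without replicate 2. *hsp3105*, with 634 and 104 normalised counts against 16.5 and 23.8, *hsp16* (1.21) and *hsp104* (0.67) were not called.

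Longevity, carbon and phosphate genes split in both directions, beside 2.91% of all genes called higher and 6.12% called lower. Among 17 longevity factors of quiescent cells the lifespan regulators *ecl2*, with 760.4 and 1705 normalised counts against 7492 and 7569 (-2.72), and *ecl1*, with 2575 and 6389.6 against 22208 and 22437 (-2.46), fell together with *sds23* (-1.44) and *isp3*, and the transcription factor gene *hsr1* rose, with 27355 and 26181 against 10182 and 10825 (1.35). *inv1*, invertase, which is repressed by glucose, had 348 and 354 normalised counts against 13803 and 16435, a 43.0-fold lower level (-5.42, limma, adjusted p = 0.00307). It was 1 of 3 that fell among 24 genes of hexose transport and glucose repression, with *dak2*, dihydroxyacetone kinase (-2.19), and the hexose transporter gene *ght2* (-1.69), and the glucose receptor gene *git3* rose (1.48). *adh4*, the one called gene of 20 in glycolysis and fermentation, had 1629 and 972 against 8345 and 8747 (-2.76). In the phosphate regulon 3 of 15 rose and 2 fell. *tgp1*, a glycerophosphodiester transporter, had 18883 and 13059 normalised counts against 2418 and 2742 (2.61, limma, adjusted p = 0.014), the phosphate transporter gene *pho84* 3269 and 5873 against 809 and 928 (2.34) and *gde1*, a phosphodiesterase, 3352 and 5521 against 1201 and 1254 (1.81), while *pho2* (-2.06) and the alkaline phosphatase gene *pho8* (-1.03) fell, the last with a call lost under 9 of the alternatives. Without *igo1* replicate 1, *inv1*, *adh4*, *ecl2* and *tgp1* were the ones of these still called, and without *igo1* replicate 2 *pho84* as well. Leaving out *igo1 pab1* replicate 1 gave medians of -0.73 for longevity factors, -0.29 for hexose genes and 0.45 for phosphate genes. Leaving out replicate 2 gave -0.45, -0.09 and 0.32.

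A pair of biotin genes fell. *vht1*, the transporter of biotin, had 902 and 587 normalised counts in the libraries labelled *igo1 pab1*, against 31343 and 38433 in those labelled *igo1*, a 46.9-fold lower level (-5.57, standard error 0.28, limma, adjusted p = 0.0044), and *bio2*, biotin synthase, 1601 and 2176 against 8441 and 9336 (-2.25). No other of 24 genes of lipid synthesis and storage was called, beside 9.03% of all genes called in either direction. In sterol synthesis 3 of 26 genes fell, beside 6.12% of all genes: the thiolase gene *erg10* (-2.07), the desaturase gene *erg31* (-1.30) and the reductase gene *erg27* (-1.14). Of 23 genes of iron handling the sulfide oxidoreductase gene *hmt2* (-2.27) and aconitase *aco1* (-1.57) fell, beside the same 6.12%. Of 12 genes of zinc and copper *adh4* and the transcription factor gene *zip1* (-1.30) fell, again beside 6.12% of all genes. Each of these sterol, iron and *zip1* calls was lost with either *igo1* replicate left out. The medians without *igo1 pab1* replicate 1 were -0.04 for the lipid genes, -0.47 for the sterol genes, -0.18 for the iron genes and -0.40 for the zinc and copper genes. Without replicate 2 they were -0.24, -0.65, -0.35 and -1.05.

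The Tf2 retrotransposons were low under the *igo1 pab1* label. They are LTR elements present in near-identical copies, so reads cannot be assigned to a copy with certainty. Of 13 elements 8 fell and 5 were not called, beside 6.12% of all genes called lower. Their median log2 fold change was -4.12. All 13 had both *igo1 pab1* libraries below both *igo1* libraries, against 34.3% of all genes. DESeq2 called 12, and limma 6 without *igo1* replicate 1 and 9 without *igo1* replicate 2, with all 13 called when either *igo1 pab1* replicate was left out. *Tf2-4* had 53.9 and 20.8 normalised counts against 1311 and 1117 (-5.13, limma, adjusted p = 0.0136), *Tf2-11* 169 and 127 against 2922 and 2253 (-4.12) and *Tf2-8* 1139 and 501 against 10224 and 9022 (-3.67). *Tf2-7* was not called (-4.25, limma, adjusted p = 0.0582), with 457 and 69.9 in its *igo1 pab1* libraries. Summed over the 13, RPM were 174 and 82.9 under the *igo1 pab1* label, 1474 and 1082 under the *igo1* label and 83.5 and 75.3 in WT.

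**Figure D3:**
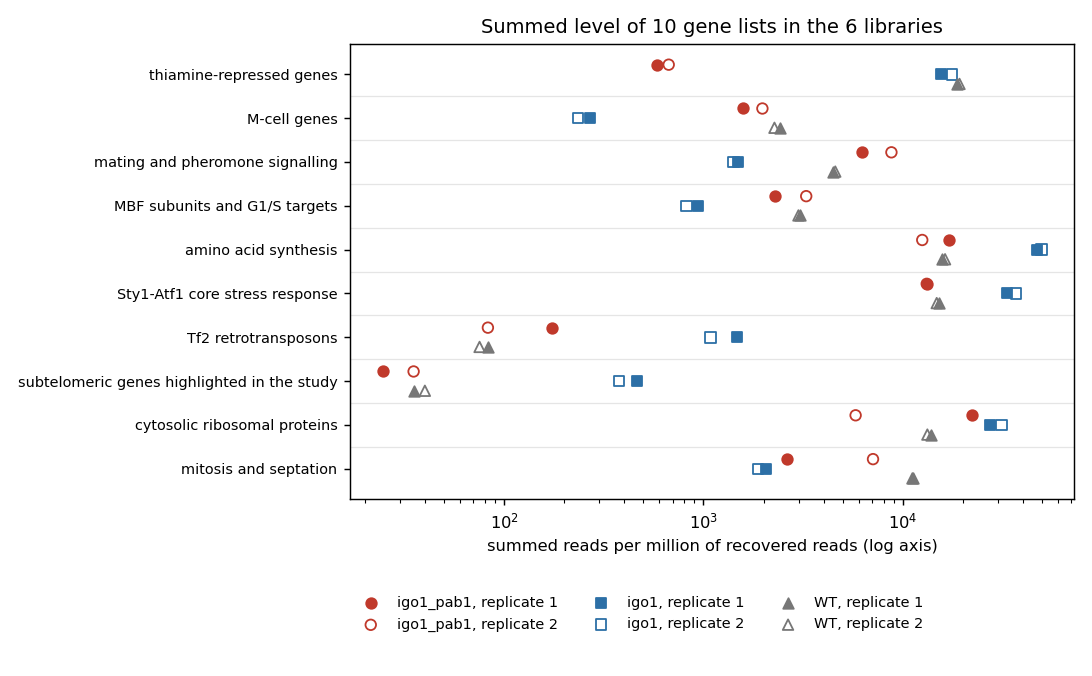
Summed RPM (log axis) of 10 gene lists in the 2 *igo1_pab1* (circles), 2 *igo1* (squares) and 2 WT libraries (triangles), filled for replicate 1 and open for replicate 2. Thiamine-repressed genes stand low in the *igo1_pab1* libraries alone, with 587 and 669, against 15470.1 and 17642 in *igo1* and 18738 and 19227 in WT, and the 2 *igo1_pab1* libraries part at the cytosolic ribosomal protein and septation genes.

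Near the chromosome ends most of the called genes were lower. Of the 160 outermost annotated genes in the table (40 at each end of chromosomes I and II) 89 were tested, of which 26 fell and 3 rose, beside 6.12% and 2.91% of all genes, with a median of -1.56. SPAC186.06 (0.80 and 0 normalised counts against 245 and 315) and SPBC1348.05 (0.80 and 0 against 111 and 112) passed the filter through the *igo1* libraries alone. So did SPAC977.15, SPAC186.03, SPBPB10D8.03, *gdt1* and SPNCRNA.448. For such genes a fall is built in by the filter. Their falls, the runs they stand in, the share and the median are thus not independent evidence of a direction. The falls were 7 of 19 tested at the left end of chromosome I, 7 of 19 at its right end, 9 of 25 at the left end of chromosome II and 3 of 26 at its right end, where the 3 rises (*pho84*, *nrg1* and SPBPB2B2.05) also lay. SPAC977.15, of the dienelactone hydrolase family, had 8.05 and 4.72 normalised counts against 1214 and 1109, a 182-fold lower level (-7.33, limma, adjusted p = 0.0044). It stands within a run of 6 genes that all fell, SPAC977.12, SPAC977.13c, SPAC977.14c, SPAC977.15, *dak2* and SPAC977.17, by log2 fold changes from -7.33 to -1.28. Runs were taken over tested genes only, so untested genes can lie between their members. SPBPB10D8.02c, an arylsulfatase gene, had 12.9 and 52.0 against 5327 and 6129.7 (-7.72), in a run with SPBPB10D8.03 and SPBPB10D8.06c. SPBPB10D8.03 had 0 reads in both *igo1 pab1* libraries and was at least 13.0-fold lower (floor of 3 reads per library). On the right end of chromosome I, SPAC186.03, an asparaginase gene, had 4.83 and 9.45 against 459.6 and 877 (-6.35), in a run with *gdt1* and SPAC186.06. The last had 1 read under the *igo1 pab1* label and 487 under the *igo1* label, a ratio of 641 with a counting interval from 115 to 25375. Its call was lost with either *igo1* replicate left out, that of SPBPB10D8.06c without *igo1* replicate 1, that of SPBPB10D8.03 under 4 alternatives and that of *dak2* under 4, edgeR among them. Many genes at these ends have duplicates elsewhere, and how shared reads were counted is not stated.

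Of the 15 genes that the study singled out as subtelomeric, 12 were tested and 9 of them fell, against 5 without *igo1* replicate 1, 6 without *igo1* replicate 2 and 11 with either *igo1 pab1* replicate left out. Of all genes 6.12% were called lower in the main fit. The study chose these subtelomeric genes from the *igo1* deletion itself, so that their count is not independent evidence of a direction. Among them SPBC1289.14, which encodes an adducin, had 12.9 and 29.3 normalised counts against 884 and 760.1 (-5.32), the agmatinase gene SPAC11D3.09 28.2 and 51.0 against 908 and 1009.9 (-4.62) and *cmt2*, a catechol O-methyltransferase gene, 53.1 and 171 against 2019 and 1990.1 (-4.38). The 3 not called included *shu1*, with 16.9 and 64.2 normalised counts against 92.6 and 74.9, and SPAC977.18, with 15.3 and 0 against 28.7 and 26.2. In RPM the list summed to 24.7 and 35.2, against 466 and 377, and to 35.5 and 40.1 in WT. Outside this list SPCC70.08c, a methyltransferase gene on chromosome III, had 163 and 116 normalised counts against 12891 and 14816 (-6.64, limma, adjusted p = 0.00307). By chromosome, 86 genes rose and 156 fell of 2718 tested on I (3.16% and 5.74%), 57 and 141 of 2186 on II (2.61% and 6.45%) and 31 and 68 of 1096 on III (2.83% and 6.20%). These shares lie near the 2.91% and 6.12% of all genes.

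Non-coding RNAs were among the largest changes on either side. Of 963 tested 35 rose (3.63%) and 49 fell (5.09%), with a median of 0.35, and of 4985 protein-coding genes 135 rose (2.71%) and 313 fell (6.28%). Both classes thus lay near the 2.91% and 6.12% of all genes. SPNCRNA.1443 had 5287 and 7954 normalised counts in the libraries labelled *igo1 pab1*, against 356 and 290.2 in those labelled *igo1* (4.33, limma, adjusted p = 0.00684). SPNCRNA.67 had 96.6 and 69.0 against 2.20 and 5.95 (4.13) and SPNCRNA.1536 52.3 and 119 against 5.51 and 2.38 (4.09), so that both held few reads in the *igo1* libraries, and both calls were lost with either *igo1* replicate left out. SPNCRNA.993 and *omt3*, which follow *mei2* in the order of tested genes, rose with it: *omt3* had 3413 and 7541 against 511 and 406 (3.47) and SPNCRNA.993 86.1 and 102 against 6.61 and 10.7 (3.33). On the falling side SPNCRNA.1287 had 5.63 and 0 against 669 and 704 (-8.06), in a run of tested genes with *Tf2-13* and *arz1*. It passed the filter through the *igo1* libraries alone, so a fall is built in. SPNCRNA.606 had 0 and 15.1 against 659 and 830.3 (-7.53). Its log2 fold change was -5.52 without *igo1 pab1* replicate 1 and -9.53 without replicate 2. Both calls were lost with a pseudocount of 0.1, and that of SPNCRNA.606 also under limma without a trend. Since the use of strand in counting is not stated, reads of overlapping and antisense genes cannot be told apart. Of 49 ribosomal RNA genes, only 12 passed the filter and were tested. Their median was 2.58, which was 4.38 without *igo1 pab1* replicate 1 and 0.70 without replicate 2. SPRRNA.51 had 12.9 and 510 normalised counts against 3.31 and 11.9, so it passed mainly through *igo1 pab1* replicate 2. For such a gene a rise follows in part from the filter, so the median is not independent evidence of a direction. None of the 12 was called by limma or edgeR, with 1 at an unadjusted p under 0.05, and DESeq2 called 5. The share of reads on all ribosomal RNA genes was 0.0304% and 0.189% under the *igo1 pab1* label, against 0.00264% and 0.0172% under the *igo1* label.

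**Figure D4:**
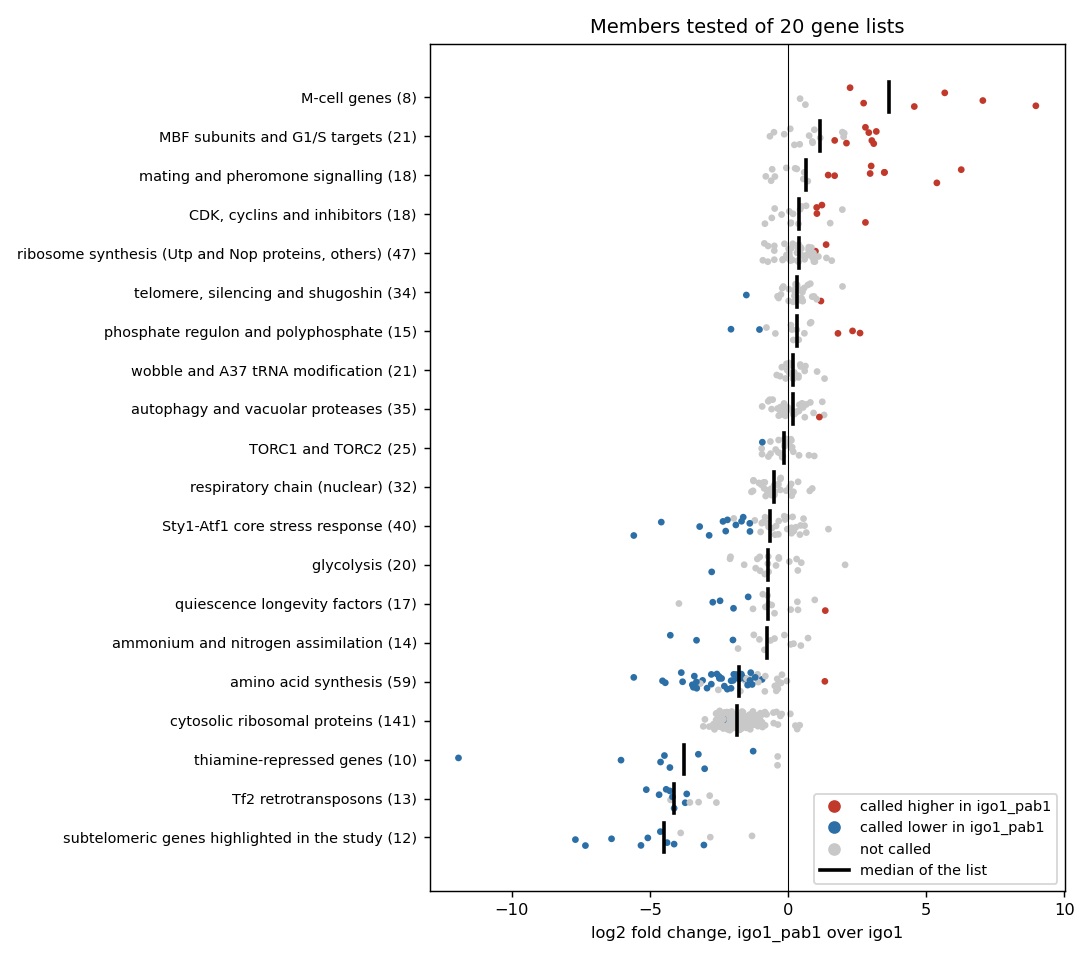
Log2 fold change of *igo1_pab1* over *igo1* (horizontal axis) for each tested member of 20 gene lists, one row per list with its number of members, ordered by the median (black bar), with red for called higher, blue for called lower and grey for not called. M-cell genes lie highest with a median of 3.66, and thiamine-repressed genes, Tf2 elements and the subtelomeric genes singled out in the study lowest with -3.76, -4.12 and -4.50.

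Genes for cytosolic ribosomal proteins stood at unlike levels in the 2 *igo1 pab1* libraries. Of 141 genes 3 fell, beside 6.12% of all genes: *rps1202* (-2.31), *rps3002* (-1.94) and *rps23* (-1.67). The *rps1202* call was lost under 9 of the alternatives. Yet of all 141 genes 137 had a negative log2 fold change, and the median was -1.84. The groups did not overlap for 122 of them on the lower side, against 34.3% of all genes, and DESeq2 called 39 lower, against 12.1% of all genes. The median was -2.86 without *igo1 pab1* replicate 1 and -0.75 without replicate 2, and the genes called lower then numbered 137 and 113, with 2 and 6 called higher, whereas the 3 calls of all libraries were lost with either *igo1* replicate left out. Summed, they took 22240.2 and 5793 RPM in the *igo1 pab1* libraries, 27374 and 31230.2 in the *igo1* libraries and 13870.00 and 13266 in WT. Many of these proteins have a pair of near-identical genes. Glycolysis had the same split, with a median of -0.72 that was -1.26 without *igo1 pab1* replicate 1 and -0.16 without replicate 2. Genes of ribosome synthesis did not: of 47, *nop10* (1.38) and *utp18* (0.99) rose, beside 2.91% of all genes, and the median was 0.38. Both calls were lost with either *igo1* replicate left out, and the median was 0.48 without *igo1 pab1* replicate 1 and 0.33 without replicate 2.

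**Figure D5:**
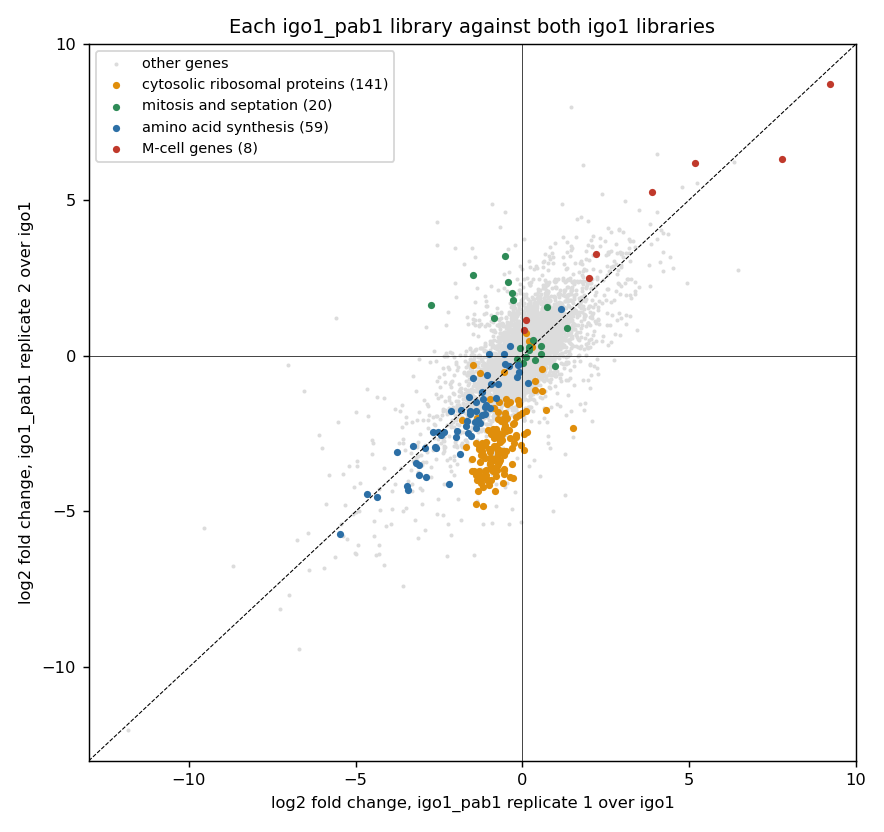
Log2 fold change over the mean of the *igo1* libraries for *igo1_pab1* replicate 1 (horizontal axis) and replicate 2 (vertical axis), each point a gene tested and the dashed line the place where both are equal. M-cell genes lie on either side of the line, with *mfm3* at 7.78 and 6.32 and *mfm2* at 3.89 and 5.25 for replicates 1 and 2. Amino acid synthesis genes have medians of -1.56 and -2.05. Cytosolic ribosomal protein genes lie mostly below the line, and genes of septation in part above it.

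Genes of septation, which act as daughter cells part, differed between the libraries in the other direction. *eng1*, a glucanase that splits the septum, had 1086 and 18277 normalised counts in the *igo1 pab1* libraries, against 3169.6 and 2941 in the *igo1* libraries, and *agn1*, also a glucanase of septum breakdown, 664 and 8744 against 894 and 1009. Replicate 2 was thus the highest of the 4 libraries for both, and replicate 1 lay below the *igo1* pair. *adg1* had 97.4 and 2042 against 644 and 684. The histone H4 gene *hhf1* had 2097 and 17757 against 2634 and 2937. None of 20 genes of mitosis and septation and none of 11 histone genes was called by limma, with 2 and 1 of them at an unadjusted p under 0.05. DESeq2 called 2 and 1, and edgeR 0. The genes furthest apart with replicate 1 on top included the non-coding RNAs *prl15* (416 and 8.50), *prl65* (175 and 4.72) and SPNCRNA.242 (1782 and 82.2), the beta-glucosidase gene *psu2* (987 and 74.6), *lsd90* (8458 and 698) and 5 ribosomal protein genes, among them *rpl1701* (1540.1 and 122), given as the normalised counts of replicates 1 and 2. With replicate 2 on top they included 5 ribosomal RNA genes, among them SPRRNA.52 (38.6 and 3588), the mitochondrial gene SPMIT.09 (12.9 and 1614), and the siderophore transporter gene *str3* (33.8 and 895). With *igo1 pab1* replicate 1 left out, the median log2 fold change was 0.42 for mitosis and septation and 0.40 for histones. Without replicate 2 these medians were 0.06 and -0.38. What set the 2 libraries apart was not tested.

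Several groups tied to the study's questions showed few or no calls. Of all genes 2.91% were called higher and 6.12% lower, and the counts in this paragraph stand beside these shares. Of 25 genes of TORC1 and TORC2 1 fell, *npr3*, a subunit of a complex that inhibits TORC1, with 958 and 842 normalised counts against 1729 and 1693 (-0.93), and its call was lost under 9 of the alternatives. None of 21 genes for wobble and A37 tRNA modification was called by limma: their log2 fold changes lay between -0.41 and 1.32, 3 had an unadjusted p under 0.05, and DESeq2 called 1 and edgeR 0. Of 34 genes for telomeres, silencing and shugoshin *poz1*, a shelterin linker, had 461 and 404 against 202 and 176 (1.19) and rose, and *clr2*, a subunit of the SHREC deacetylase complex, had 282 and 385 against 906 and 976.6 (-1.51) and fell, while *rap1* (0.41), *taz1* (0.29), *sgo2* (0.59) and *clr3* (-0.34) were not called. Both calls were lost with either *igo1* replicate left out, and that of *poz1* under 7 alternatives in all, edgeR among them. Of 35 genes of autophagy and vacuolar proteases *atg22*, an exporter of amino acids from the vacuole, rose, with 4356 and 4388 against 2047 and 1934 (1.14), again lost with either *igo1* replicate left out. Without *igo1 pab1* replicate 1 the median log2 fold changes were -0.21 for TORC1 and TORC2, 0.26 for tRNA modification, 0.39 for telomeres and silencing and 0.096 for autophagy. Without replicate 2 they were -0.06, 0.30, 0.39 and 0.21. Among the 34 telomere and silencing genes the groups did not overlap for 23 on the higher side and 3 on the lower side. The shares of all genes were 32.9% and 34.3%. In the same order the numbers were 5 and 10 of 25 for TORC1 and TORC2, 7 and 0 of 21 for tRNA modification and 16 and 9 of 35 for autophagy. No gene of 32 for the nuclear part of the respiratory chain (median -0.50), of 8 listed for the mitochondrial genome (median 0.89) or of 20 subunits of RNA polymerases I and III (median 0.14) was called by limma. At an unadjusted p under 0.05 limma had 13, 1 and 4 of these genes, edgeR called 0, and DESeq2 called 9 lower in the first list, 4 higher in the second, and 1 higher and 1 lower in the third. For the respiratory chain the groups did not overlap for 23 on the lower side and 3 on the higher side. The median of the 8 mitochondrial genes was 1.31 without *igo1 pab1* replicate 1 and 0.38 without replicate 2. Counting every gene of the mitochondrial genome, 26 were tested and 1 was called higher. Of 27 genes of the cell wall and flocculins the DIPSY glycoprotein gene *pfl9* (-3.26) and *gsf1* (-1.46) fell, and of 8 genes of vacuolar, inositol, allantoin and uracil uptake *urg2* (-1.40), all of them lost with either *igo1* replicate left out. None of 4 genes of the galactose cluster was called by limma or edgeR, with 1 at an unadjusted p under 0.05 and 1 called lower by DESeq2.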

How the data were processed

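RNAseq was done on 6 libraries. Per the labels and the submitters' processing notes, RNA was made into TruSeq Stranded Total RNA libraries, reads were checked with FastQC 0.11.8, trimmed with Trimmomatic 0.38, aligned with HISAT2 2.1.0 to ASM294v2 and counted per gene with featureCounts (Subread 1.6.3). The deposited signal values are read counts that the authors divided by DESeq2 size factors, so whole reads could be recovered (100.0% of values came out whole, within 0.001). The WT table was scaled apart from the table tested here, so WT enters only as RPM and without a test. Strand and multi-mapping settings are not given in the sources used here.

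Normalised counts were tested with limma 3.58.1 (R 4.3.3) with an intensity trend on log2(value + 1), after a filter at a mean of 10, over 6046 genes. Fold changes are on that scale, which understates changes of low genes, while fold differences in words are ratios of group means. edgeR 4.0.16 and DESeq2 1.42.0 were run on the recovered reads as alternatives (edgeR called 180 genes higher and 314 lower), with other pseudocounts, filters and scalings, the replicate number as a block, and each library left out. List counts under these settings were added after the data were seen. The labels call the libraries biological replicates, and no further origin is given, so p-values measure only the spread between these samples. With 2 libraries a side an exact permutation test over samples could not fall below 0.05. Named genes were, among called genes without overlap of the groups, those with the 12 highest and 12 lowest fold changes, called members of the gene lists with the larger changes and the genes furthest apart between the *igo1 pab1* libraries. Others named were chosen after their values were seen. The members and lists were chosen with earlier results of these data known. Of the 7001 gene names 6863 (98.0%) matched RefSeq. Intervals on read ratios cover counting error only. The scripts were tested on simulated data, and plots used matplotlib 3.10.9.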

Additional observations from a re-analysis of the deposited data

How the results depend on the processing

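With the other settings in place of limma on the 4 libraries, the counts of genes called higher and lower were 565 and 732 by DESeq2 and 777 and 878 by edgeR fitted over all 6 libraries, against 176 and 370. Leaving out 1 library gave between 34 and 1851 genes called higher and between 89 and 2015 called lower. The low ends came without *igo1* replicate 1 and the high ends without *igo1 pab1* replicate 1. The remaining alternatives gave 142 to 247 higher and 263 to 377 lower genes, with the extremes from limma without a trend (142 and 263), upper-quartile scaling (247 higher) and a pseudocount of 10 (377 lower). The replicate numbers did not pair the samples: the correlation of the deviations of same-numbered libraries was 0.016, and with the number as a replicate block 170 genes were called higher and 374 lower, of which 131 and 311 were also called without it. No call changed direction in any setting, all of which refit the same *igo1* and *igo1 pab1* libraries. The cause of the differences between settings was not tested. Calls of genes with few reads in one group, and of genes with near-identical copies, are limited by depth and by how shared reads were counted.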
